A study of Mus musculus with 6 samples.

Results

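Matrix metalloproteinases are zinc-dependent proteases that cut collagens, other matrix proteins and signalling proteins outside the cell. The 10 genes described here are Mmp2, Mmp3, Mmp8, Mmp9, Mmp10, Mmp11, Mmp13, Mmp14, Mmp19 and Mmp23, found by symbol in the GENCODE vM21 annotation among the 55536 genes of the count files. The annotation holds 23 genes named Mmp with a digit, so 13 family genes lie outside the list, and these are given by count and value below. Of the 10, Mmp3, Mmp8, Mmp10 and Mmp13 belong to the Mmp cluster of chromosome 9, and the other 6 lie on other chromosomes.

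The data are bulk RNA-seq of 6 libraries of mouse stromal cells that had been sorted as CD29-positive, CD45-negative and CD31-negative. All 6 carried a tdTomato reporter of p16, the cell cycle inhibitor made from Cdkn2a, on the C57Bl/6 strain: 3 libraries were of tdTomato-positive cells (p16+) and 3 of tdTomato-negative cells (p16-). The series describes a foreign body fibrosis model, in which per the labels' protocols quadriceps muscle was removed at 10 weeks of age and the defect filled with 50 uL of saline, with decellularized extracellular matrix or with 30 mg of polycaprolactone, and the muscle harvested at 1 or 6 weeks. The filler and harvest time of these libraries, the age at sorting and whether replicates were separate animals are not given in the sources used here, so the p-values rest on the spread among these libraries alone, which may be technical. How the reporter was built is not given there either. Cdkn2a itself was also measured in the tdTomato-negative cells, at a mean of 2.13 ± 0.329 CPM against 7.82 ± 0.961 CPM in the tdTomato-positive ones (SD, n = 3 each). CPM scales the count of a gene to the normalized size of its library. Scaled instead to the raw library totals of 35253406 to 39103909 counts, 3 counts were worth 0.0767 to 0.0851 CPM. All 9 markers of fibroblastic stroma were above 1 CPM in every library, with a sum of 86290 to 88950 CPM in p16+ and 52320 to 59430 in p16- that was mostly Col1a1 and Col1a2. Of the 9, 5 were called higher in p16+ and Ly6a was called lower, at 699 ± 29.2 against 1055 ± 76.2 CPM (adjusted p = 7.37e-05), while Pdgfra averaged 866 against 1018 CPM and Dcn 7884 against 8744 CPM, neither of them called.

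Most family members are made as inactive proenzymes that are opened by other proteases, and the secreted tissue inhibitors of metalloproteinases (TIMPs) block them afterwards. By role they are collagenases, which start the cleavage of fibrillar collagen, gelatinases, which cut collagen once it has unwound, stromelysins, which cut many non-fibrillar matrix proteins, and membrane-type enzymes, which act at the cell surface. In muscle and other connective tissue, fibroblasts are a main source of Mmp2, Mmp3 and Mmp14, while Mmp8 and Mmp9 are best known from neutrophils and other myeloid cells. RNA levels say nothing of how much proenzyme was made or activated.

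The transcripts of 9 of the 10 members were higher in p16+ than in p16- cells and that of none was lower, at an adjusted p under 0.05. All adjusted p-values are from edgeR's quasi-likelihood test with Benjamini-Hochberg adjustment over all 15903 genes tested, of which 8.69% were called higher and 8.04% lower in p16+. The 4 listed members in the chromosome 9 cluster had the larger log2 fold changes, from 1.28 for Mmp3 to 2.20 for Mmp13, with a median of 2.08. The 6 other members lay between 0.16 for Mmp23 and 0.92 for Mmp9, with a median of 0.45 and 5 of the 6 called higher. The median of all genes tested was -0.01. In every member the CPM ranges of the groups did not overlap, as was the case for 33.1% of all genes tested, 16.6% with p16+ on top. The list leaves out 6 family genes that could be tested, none of which was called. Over the whole family the count was thus 9 of 16 tested genes higher and 0 lower, with a median log2 fold change of 0.45. Mmp12 and Mmp27, 2 of those left out, lie in the chromosome 9 cluster. Over the 6 tested Mmp genes of the cluster, 4 were higher and 0 lower, with a median of 1.64 and a range of -0.49 to 2.20.

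**Figure D1:**
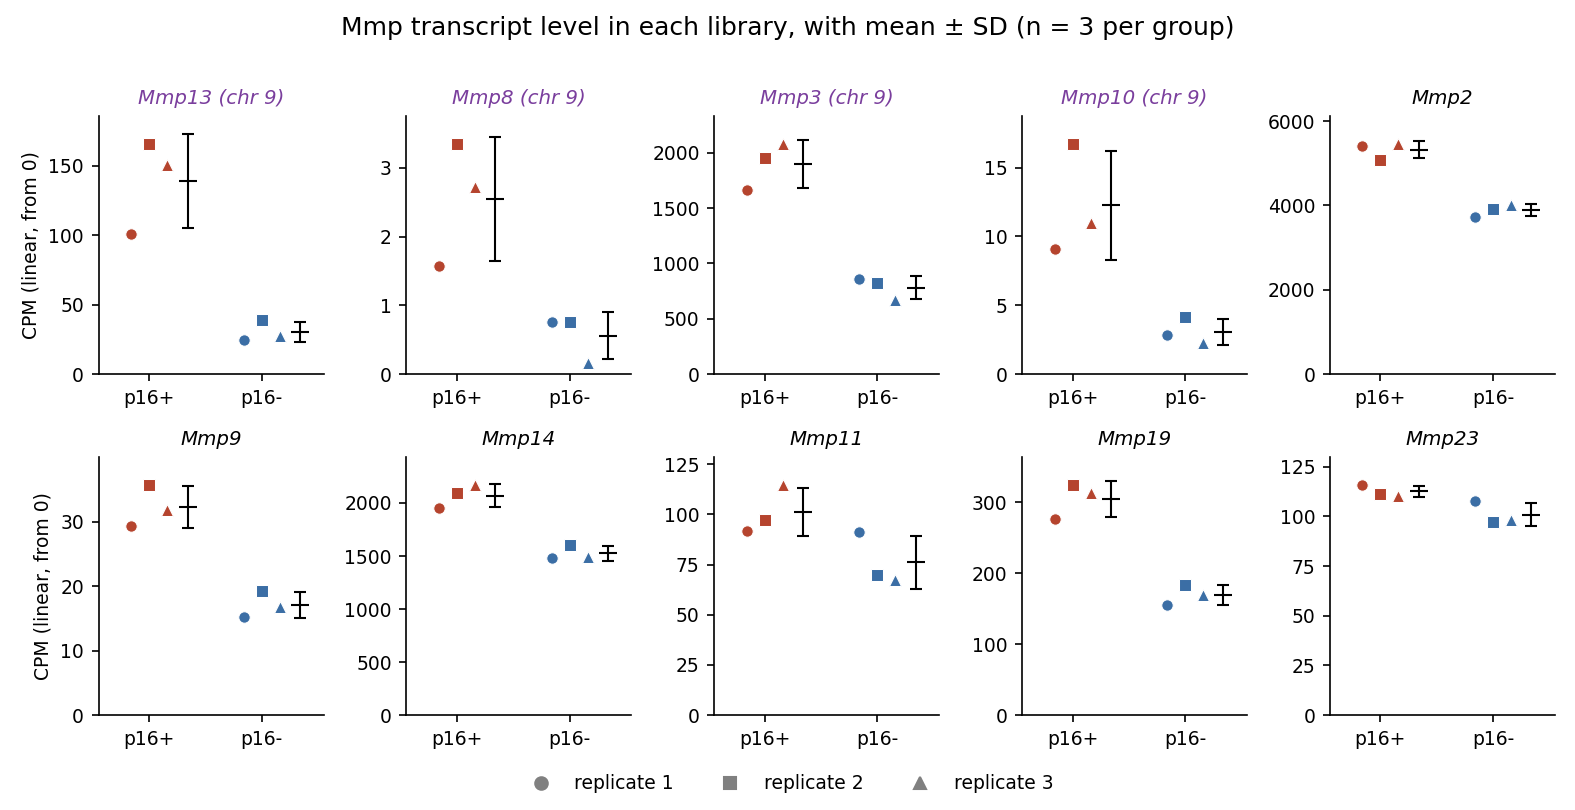
Level of each Mmp gene in CPM (vertical axes, linear from 0) in the 3 p16+ and 3 p16- libraries, with one marker shape per replicate number, and mean ± SD beside the points. The 3 p16+ libraries lie above the 3 p16- libraries in all 10 panels, by the widest relative margin in Mmp13, Mmp8 and Mmp10 and by the narrowest in Mmp11 and Mmp23.

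The collagenase gene Mmp13 (ENSMUSG00000050578.10) lies at chr9:7272514-7283331 on the plus strand of GRCm38. Its enzyme is the main collagenase of mouse connective tissue and is known from hypertrophic cartilage, bone and wound fibroblasts. It was measured at 101.2, 165.8 and 150.4 CPM in p16+ replicates 1, 2 and 3 and at 24.68, 38.64 and 27.60 CPM in the p16- replicates. The lowest p16+ library was thus well above the highest p16- library, and p16+ replicate 1 was low within its group. The means were 139 ± 33.7 and 30.3 ± 7.36 CPM (SD, n = 3 each), a 4.59-fold difference (log2 fold change 2.20, SE 0.23, adjusted p = 0.00052). Markers of cartilage and bone were low: the 7 chondrocyte markers summed to 131 to 194 CPM in p16+ and 99.7 to 147 in p16-, of which Comp, a gene that fibroblasts also transcribe, was 142 ± 34.2 and 108 ± 22.0 CPM, with Matn1 at 0 counts in all libraries. Of these markers Acan and Sox9 were higher in p16+ and the other 2 tested were not called. Without p16+ replicate 3, or without p16- replicate 3, none of the 4 was called. The 6 osteoblast markers summed to 50.1 to 60.1 CPM in p16+ and 32.0 to 37.1 CPM in p16-. Runx2 made up most of both sums, at 43.7 ± 5.30 and 22.7 ± 2.85 CPM, and was called higher in p16+. Dmp1 was called higher too, at an adjusted p of 0.0476. That call was lost on leaving out any library (0.0757 to 0.135). It was also lost with library sizes alone (0.0677), with no filter (0.0789) and with the replicate number as a term (0.0625). Alpl averaged lower in p16+ without overlap, at 6.65 ± 0.446 against 8.70 ± 1.17 CPM, and was not called. Sp7 averaged higher and was not called, and Bglap and Ibsp were listed at 0 in all p16+ libraries. The part of these cell types in the Mmp13 difference was not tested, and in bulk RNA more cells of a type and more RNA per cell cannot be told apart.

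The other collagenase gene, Mmp8 (ENSMUSG00000005800.3, chr9:7558456-7568485, plus strand), whose enzyme is stored in neutrophil granules, had the lowest level of the members, also per length. The p16+ libraries held 57, 123 and 93 counts of it and the p16- libraries 31, 30 and 6, or 1.57, 3.35 and 2.72 CPM against 0.762, 0.757 and 0.161 CPM. The groups did not overlap, p16+ replicate 1 was the low library of its group and p16- replicate 3 that of the other. The log2 fold change was 2.17 with the widest error of the members (SE 0.52, adjusted p = 0.0080), and without p16+ replicate 2 the adjusted p was 0.0524. Above the 0.267 CPM of the filter on low counts were 3 p16+ but only 2 p16- libraries. The filter asks for 3 libraries of either group, so Mmp8 needed at least 1 p16+ library to pass. With no filter its log2 fold change was also 2.17. The summed neutrophil markers overlapped between the groups. The 11 of them came to 5.31 to 8.17 CPM in p16+ and 6.15 to 6.77 in p16-, Elane had 0 counts in every library, and none of the 4 that could be tested was called, at an unadjusted p under 0.05 for 1 of them, Mpo, whose adjusted p was 0.0846. Mpo was called higher by DESeq2 and limma-voom, with no filter, with the replicate number as a term and without p16- replicate 2, at adjusted p-values of 0.0042 to 0.0472. The part of neutrophils in the Mmp8 difference was not tested.

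Mmp3 (ENSMUSG00000043613.8, chr9:7445822-7455975, plus strand) encodes stromelysin-1, which cuts proteoglycans and fibronectin and can open other proenzymes. It had the highest level of the cluster, also per length, at 1660, 1950 and 2081 CPM in p16+ and 857.2, 820.1 and 665.8 CPM in p16-. The nearest libraries of the groups were p16+ replicate 1 and p16- replicate 1, and even these were far apart. The means of 1897 ± 216 and 781 ± 102 CPM differed 2.43-fold (log2 fold change 1.28, SE 0.11, adjusted p = 6.76e-07), the smallest adjusted p of the 10 members.

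Mmp10 (ENSMUSG00000047562.3, chr9:7502352-7510240, plus strand) encodes stromelysin-2, a close relative of stromelysin-1. It was measured at 9.05, 16.7 and 11.0 CPM in p16+ and 2.83, 4.14 and 2.26 CPM in p16-. Again p16+ replicate 2 was the highest library and the ranges did not overlap. The means were 12.2 ± 3.99 and 3.07 ± 0.963 CPM (log2 fold change 1.99, SE 0.25, adjusted p = 4.10e-05). Of the 50-base words of annotated Mmp10 transcripts, 8.37% also occur in Mmp3, whose counts were 117 to 303 times as high in each library. The count ratio of Mmp10 to Mmp3 was not constant, at 0.00545, 0.00857 and 0.00528 in p16+ and 0.00330, 0.00504 and 0.00339 in p16-, a log2 difference of 0.71 (exact permutation test, two-sided, p = 0.1, the smallest that 3 against 3 libraries allow).

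Within p16+ cells, replicate 1 was the lowest library for all 4 cluster members, and also for Mmp9, Mmp11, Mmp14 and Mmp19, while Mmp13, Mmp8 and Mmp10 were highest in replicate 2 and Mmp3 in replicate 3. Within p16- cells the lowest library was replicate 3 for Mmp3, Mmp8, Mmp10 and Mmp11, replicate 1 for Mmp13, Mmp2, Mmp9, Mmp14 and Mmp19, and replicate 2 for Mmp23. Mmp13, Mmp9 and Mmp19 had replicate 2 as the highest and replicate 1 as the lowest library in both groups. The fall from the highest to the lowest library within a group was 1.25-fold and 1.29-fold for Mmp3 but 1.64-fold and 1.57-fold for Mmp13. The count ratio of Mmp13 to Mmp3 was higher in each p16+ library than in any p16- library, at 0.0610, 0.0850 and 0.0723 in p16+ and 0.0288, 0.0471 and 0.0415 in p16- (log2 difference 0.91, exact permutation p = 0.1).

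The promoters of the 4 cluster members are shown because all 4 were called higher. The family is also known for a control element just upstream of the start. This is the AP-1 element TGANTCA, bound by dimers of the Fos and Jun proteins. The sequences are the 150 bases before the RefSeq start on GRCm38.p6, read 5′ to 3′ on the plus strand. Capitals mark matches on either strand to TGANTCA, to the RUNX element AACCACA and to the TATA element TATAAA.
Mmp13 (chr9:7272364-7272513): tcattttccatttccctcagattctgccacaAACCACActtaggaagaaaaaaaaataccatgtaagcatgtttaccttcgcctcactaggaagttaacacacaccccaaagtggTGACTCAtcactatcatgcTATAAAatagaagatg
Mmp3 (chr9:7445672-7445821): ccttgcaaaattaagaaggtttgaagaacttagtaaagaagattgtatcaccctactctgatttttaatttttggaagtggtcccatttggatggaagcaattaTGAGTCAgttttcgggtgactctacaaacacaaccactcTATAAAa
Mmp10 (chr9:7502192-7502341): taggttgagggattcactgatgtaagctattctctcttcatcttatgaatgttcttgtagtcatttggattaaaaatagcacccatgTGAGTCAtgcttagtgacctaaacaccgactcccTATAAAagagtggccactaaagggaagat
Mmp8 (chr9:7558279-7558428): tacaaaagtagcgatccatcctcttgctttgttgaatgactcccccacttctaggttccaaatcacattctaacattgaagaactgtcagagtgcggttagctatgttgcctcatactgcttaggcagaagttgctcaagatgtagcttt

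Mmp13, Mmp3 and Mmp10 each held 1 AP-1 match followed by 1 TATA match, and the Mmp8 window held neither. The AP-1 matches began 35, 46 and 63 bases before the start in Mmp13, Mmp3 and Mmp10. In the 250 bases before the start, 6.75% of 32851 RefSeq promoters had an AP-1 match and 12.4% a TATA match. Within the cluster, 8 of the 10 Mmp genes had the AP-1 match before at least 1 RefSeq start. Of these, Mmp13, Mmp3 and Mmp10 were called higher. Mmp12, which held the match before the later of its starts, was not called. Mmp1a, Mmp1b, Mmp7 and Mmp20 could not be tested, Mmp7 and Mmp20 having 0 counts in all 6 libraries. Mmp8, called higher, and Mmp27, not called, had no match. The part of AP-1 in the differences was not tested. Mmp13 was the only one of the 7 members with a RefSeq promoter that held the RUNX match, found in 4.4% of all promoters and also in Mmp27 and Mmp7. RUNX2, which binds that element, is a known activator of Mmp13 in bone and cartilage. Its part in the Mmp13 difference was not tested. Of the 3 members elsewhere that have a RefSeq promoter here, Mmp11, Mmp14 and Mmp23, none had an AP-1 or TATA match, while Mmp11 and Mmp14 each had 2 matches to the GC box GGGCGG, which 32.7% of promoters hold. The table has no promoter for Mmp2, Mmp9 or Mmp19. These matches are letters found in a window, not sites shown to be bound.

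The genes between and beside the cluster members did not move as a block. Measured from the start of Mmp13, Mmp3 starts at 173.3 kb, Mmp10 at 229.8 kb and Mmp8 at 285.9 kb. Mmp12, the macrophage elastase gene at 71.9 kb, had 77.6, 40.3 and 35.4 CPM in p16+ and 47.2, 41.1 and 48.9 CPM in p16- (adjusted p = 0.81). The ranges overlapped, and p16+ replicate 1 alone was high. Without that library the log2 fold change of Mmp12 was -0.27 in place of 0.16, in neither case called. In p16+ replicates 1, 2 and 3 the 12 macrophage markers summed to 311, 324 and 280 CPM, mostly Lyz2, and Csf1r had 31.7, 28.1 and 24.9 CPM. Within p16+, Csf1r, Cd68, Fcgr1 and C1qc were highest in replicate 1 and Mertk in replicate 3. Lyz2, Adgre1, Itgam, Cd163, Mrc1, C1qa and C1qb were highest in replicate 2. The part of macrophages in the high Mmp12 library was not tested.

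Mmp27, the gene next to Mmp8 at 298.9 kb, was the only tested gene of the cluster with a negative log2 fold change, -0.49 (SE 0.17, adjusted p = 0.0531). It had 10.9, 14.1 and 11.7 CPM in p16+ and 20.9, 13.1 and 17.6 CPM in p16-, and the ranges overlapped through p16+ replicate 2 and p16- replicate 2. It was called lower under 4 of the 9 other settings with all libraries and without either of these 2 libraries, with adjusted p-values from 0.0071 to 0.0489. Mmp1a, Mmp1b, Mmp7 and Mmp20 had too few counts to test. Of the bordering genes, Dync2h1 (adjusted p = 0.739) and Dcun1d5 (adjusted p = 0.826) on one side and Birc2 (adjusted p = 0.569) on the other were not called, and Tmem123 was higher by 0.30 on the log2 scale (adjusted p = 0.0147), a call that was lost with library sizes alone (0.0548) and on leaving out replicate 3 of either group or p16+ replicate 2 (0.0747 to 0.0875).

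**Figure D2:**
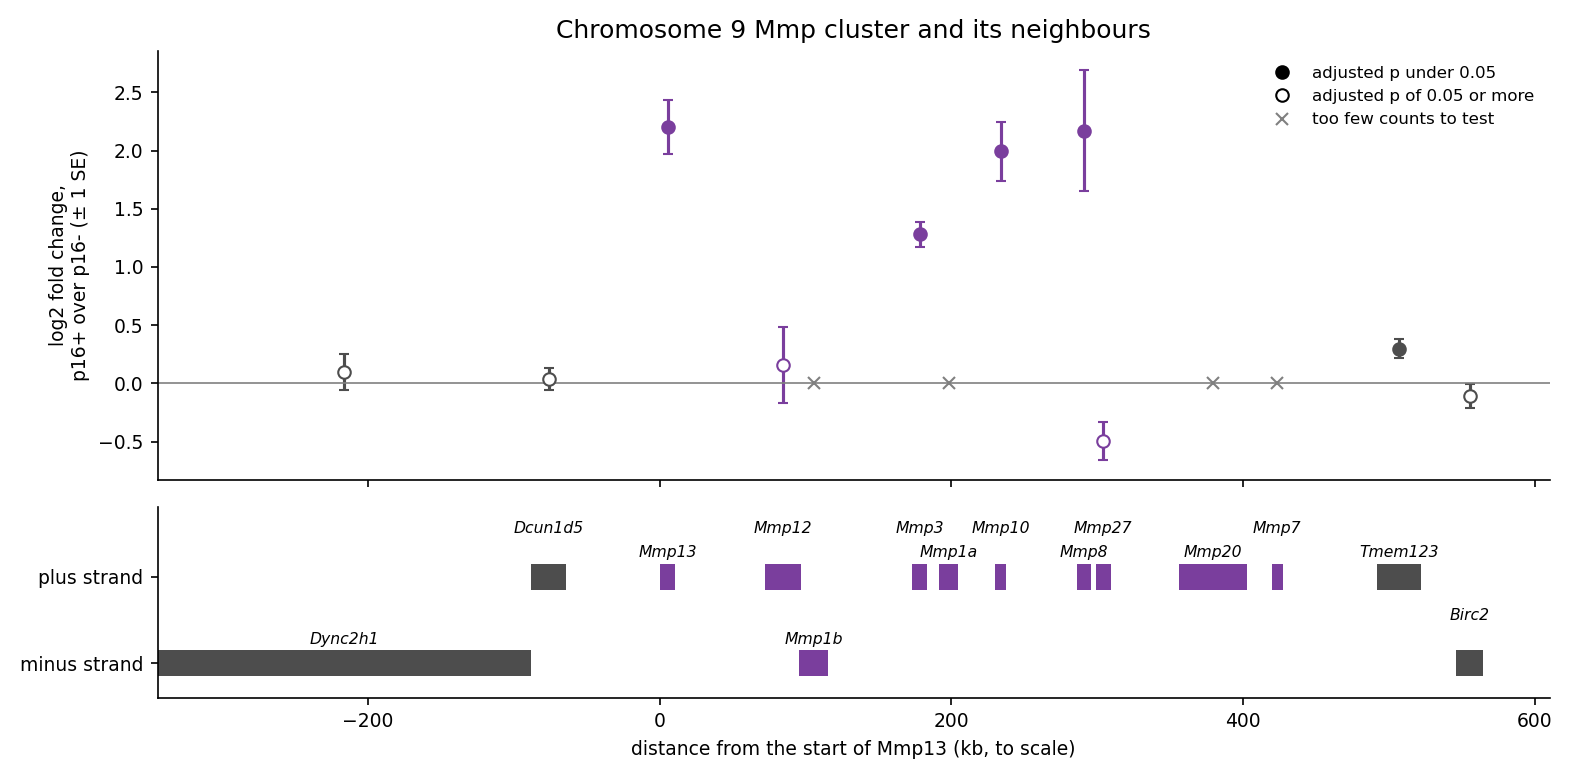
Upper panel: log2 fold change (p16+ over p16-, ± 1 SE) of the genes of the chromosome 9 Mmp cluster, in purple, and of their neighbours, in grey, against distance from the start of Mmp13 in kb. Lower panel: the genes to scale on each strand. The filled points of Mmp13, Mmp3, Mmp10 and Mmp8 lie at 1.28 or more, with Mmp12 between them near 0 and Mmp27 beyond them at -0.49.

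Among the members on other chromosomes, the gelatinase gene Mmp2 (ENSMUSG00000031740.8, chr8:92827291-92853420, plus strand) had the highest level of all, also per length. It had 5417, 5087 and 5460 CPM in p16+ and 3726, 3917 and 4014 CPM in p16-. The 3 libraries of each group lay close together, within 1.07-fold and 1.08-fold. The means of 5321 ± 204 and 3886 ± 147 CPM differed 1.37-fold (log2 fold change 0.45, SE 0.08, adjusted p = 0.00054).

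Mmp14 (ENSMUSG00000000957.11, chr14:54431612-54445364, plus strand) encodes the membrane-type enzyme MT1-MMP, which cuts collagen at the cell surface and opens the Mmp2 proenzyme together with TIMP2. It was at 1949, 2091 and 2169 CPM in p16+ and 1483, 1607 and 1486 CPM in p16- (means 2070 ± 111 and 1525 ± 70.8). Its log2 fold change of 0.44 (SE 0.08, adjusted p = 0.00088) was close to that of its substrate. The count ratio of Mmp14 to Mmp2 was 0.360, 0.411 and 0.397 in p16+ and 0.398, 0.410 and 0.370 in p16-, with overlapping ranges (log2 difference -0.01, exact permutation p = 0.8). Both rises were smaller than those of the 4 cluster members.

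The other gelatinase gene, Mmp9 (ENSMUSG00000017737.2, chr2:164940780-164955850, plus strand), is strongly transcribed by neutrophils, macrophages and osteoclasts. It had 29.3, 35.7 and 31.8 CPM in p16+ and 15.2, 19.2 and 16.8 CPM in p16-, with a wide gap between the groups. The means of 32.2 ± 3.24 and 17.1 ± 1.99 CPM were 0.92 apart on the log2 scale (SE 0.12, adjusted p = 4.46e-05). The sums of the macrophage and osteoclast markers were higher in p16+ as well, though not every marker was. The 12 macrophage markers summed to 280 to 324 CPM in p16+ and 194 to 217 in p16-, with 7 of the 11 tested higher in p16+, among them Csf1r at 28.2 ± 3.39 and 12.5 ± 3.28 CPM and Mertk at 19.7 ± 1.63 and 12.2 ± 1.39 CPM. The 7 osteoclast markers summed to 94.6 to 110 CPM and 37.8 to 43.3 CPM, with 2 of the 5 tested higher in p16+: Acp5, a gene macrophages also transcribe, at 85.6 ± 7.83 and 32.4 ± 3.00 CPM, and Atp6v0d2, at 11.0 ± 2.29 and 5.65 ± 0.902 CPM (adjusted p = 0.0023). Acp5 made up most of the osteoclast sum. Oscar and Ocstamp were under 0.2 CPM on average in both groups, and lower in p16+. Dcstamp, at 0.465 ± 0.497 and 0.647 ± 0.463 CPM, also averaged lower in p16+ and was not called. So did the macrophage marker Cd163, at 0.865 ± 0.421 and 0.904 ± 0.342 CPM, likewise not called. The other markers of these lists averaged higher in p16+. Ptprc, which encodes the CD45 that the sort selected against, averaged 7.77 ± 2.22 CPM against 4.89 ± 0.929 CPM (adjusted p = 0.0602). Pecam1, which encodes the CD31 also selected against, was called higher, at 6.73 ± 1.58 against 3.34 ± 0.778 CPM (adjusted p = 0.0087, but 0.0621 without p16+ replicate 3). The part of these cells in the Mmp9 difference was not tested.

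Some markers of vessels, mural cells and muscle were called higher in p16+ too. The 5 endothelial markers summed to 21.6 to 33.7 CPM in p16+ and 19.1 to 23.1 in p16-, with overlap. Pecam1 and Emcn were called higher and the other 3 were not called. Of those not called, Cdh5 and Tie1 averaged higher in p16+ and Kdr lower, at 11.2 ± 3.02 against 12.5 ± 1.78 CPM. The 5 markers of smooth muscle and pericytes summed to 1417 to 1480 CPM and 934 to 1216 CPM, with Acta2, Myh11, Mcam and Rgs5 called higher. Cspg4 was not called and averaged lower in p16+, at 59.1 ± 3.39 against 65.5 ± 6.61 CPM. The call of Myh11 was lost without p16- replicate 1 (adjusted p = 0.0708), and that of Rgs5 on leaving out p16+ replicate 2 (0.0596) or p16+ replicate 3 (0.0698). The 5 markers of satellite cells and muscle fibres summed to 17.8 to 27.8 CPM and 14.5 to 16.5 CPM. Of these, Pax7 was called higher, at 7.57 ± 2.04 against 3.86 ± 1.28 CPM (adjusted p = 0.0184), and the other 4 were not called. The part of these cell types in the differences of the 10 members was not tested.

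Mmp19 (ENSMUSG00000025355.7, chr10:128790910-128800824, plus strand), whose enzyme cuts basement membrane and other matrix proteins, had the second highest log2 fold change outside the cluster. It was measured at 275.8, 324.3 and 313.1 CPM in p16+ and 155.6, 183.1 and 169.4 CPM in p16-. The groups were far apart against their spread (304 ± 25.4 and 169 ± 13.8 CPM, log2 fold change 0.85, SE 0.09, adjusted p = 5.32e-06). Of its exonic length 28.3% is overlapped by Tmem198b and Gm47093 on the opposite strand, and counts made without strand cannot tell these apart. Both partners were low and neither was called, Tmem198b at 22.3 ± 1.91 and 24.1 ± 0.784 CPM and Gm47093 at 0.309 ± 0.151 and 0.222 ± 0.0530 CPM.

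Mmp11 (ENSMUSG00000000901.17, chr10:75923222-75936496, minus strand) encodes stromelysin-3, known from the stroma around tumours and from tissue remodelling. It had 91.9, 97.2 and 114.6 CPM in p16+ and 91.3, 69.9 and 67.2 CPM in p16-. The ranges were separated only by the gap between the replicate 1 libraries of the groups, at 91.9 and 91.3 CPM. The log2 fold change of 0.41 (SE 0.11) had an adjusted p of 0.0184, and the call was lost without p16+ replicate 3 (adjusted p = 0.130), without p16- replicate 2 (0.0592), without p16- replicate 3 (0.107) and with library sizes alone (0.0540).

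Mmp23 (ENSMUSG00000029061.2, chr4:155650655-155653384, minus strand), an unusual member anchored in membranes by its N-terminal part, was not called. It had 115.8, 111.4 and 110.5 CPM in p16+ and 107.7, 97.07 and 97.96 CPM in p16-. The ranges did not overlap, but the difference was small (log2 fold change 0.16, SE 0.07, adjusted p = 0.182). Without p16- replicate 1, the highest of its group, the adjusted p was 0.0489.

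**Figure D3:**
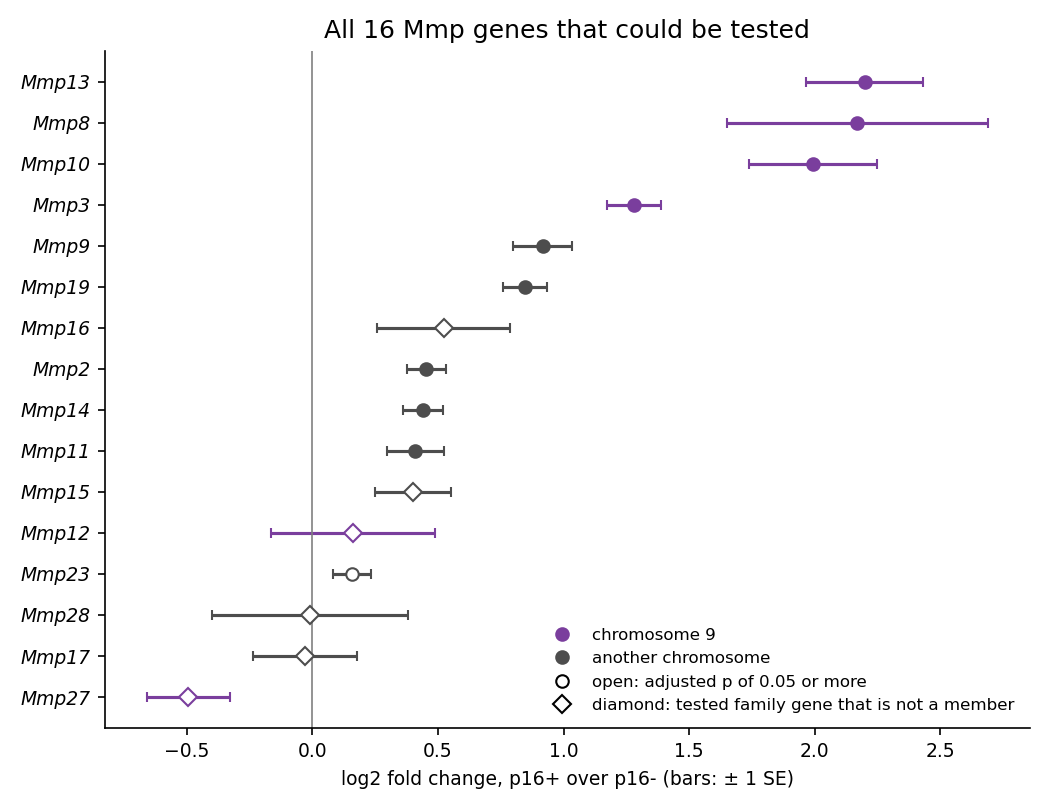
Log2 fold change (p16+ over p16-, horizontal axis, bars ± 1 SE) of the 16 Mmp genes that could be tested. Purple marks chromosome 9, filled points an adjusted p under 0.05 and diamonds the genes outside the list of 10; the 4 cluster members stand at the top, the filled grey points lie between 0.41 and 0.92, and all diamonds are open.

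Of the family genes outside the list that could be tested and lie elsewhere, the membrane-type genes Mmp15, Mmp16 and Mmp17 and the secreted Mmp28 were not called. Mmp15 averaged 10.1 ± 0.441 CPM in p16+ against 7.64 ± 0.478 in p16- (adjusted p = 0.0888), and Mmp16 5.87 ± 1.20 and 4.08 ± 1.38 CPM (adjusted p = 0.215). Mmp17 had 5.18 ± 0.243 and 5.29 ± 0.969 CPM (adjusted p = 0.949), and Mmp28 1.83 ± 0.682 and 1.85 ± 0.605 CPM (adjusted p = 0.992). None of the 4 thus passed, although Mmp15 did not overlap between the groups. Mmp24 and Mmp25 had too few counts to test. Mmp21, like Mmp7 and Mmp20, had 0 counts in all 6 libraries, which allows a level of up to 0.0767 to 0.0851 CPM by the raw library totals.

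Levels of different genes were compared as CPM per kilobase of exonic length. In p16- cells the order was Mmp2 at 1153 ± 43.6, Mmp3 at 434 ± 56.4, Mmp14 at 256 ± 11.9, Mmp19 at 47.9 ± 3.90, Mmp23 at 43.1 ± 2.52, Mmp11 at 27.4 ± 4.75, Mmp13 at 11.3 ± 2.75, Mmp9 at 4.83 ± 0.562, Mmp10 at 1.78 ± 0.559 and Mmp8 at 0.231 ± 0.142 (SD, n = 3). Only the neighbours Mmp19 and Mmp23 overlapped between libraries. In p16+ cells Mmp13, at 52.1 ± 12.6, stood above Mmp11 at 36.4 ± 4.27 on average and overlapped with Mmp23 at 48.1 ± 1.19, and Mmp10 at 7.11 ± 2.32 overlapped with Mmp9 at 9.11 ± 0.915. Mmp2 at 1579 ± 60.6 and Mmp3 at 1053 ± 120 still led.

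Mmp2 made up 49.1% ± 2.85 of the length-normalized sum of the 10 members in p16+ and 58.3% ± 2.75 in p16-, and Mmp3 32.7% ± 2.28 and 21.9% ± 2.61. Mmp3 thus took a larger share in p16+ cells and Mmp2 a smaller one, without overlap between libraries. Added up without division by length, the 10 members came to 9651, 9882 and 10444 CPM in p16+ and 6464, 6757 and 6548 CPM in p16-. The order depends on the length used: per kilobase of the longest transcript, Mmp14 in p16- stood at 471 ± 21.9, above Mmp3 at 434 ± 56.4, and Mmp23 at 70.4 ± 4.11, above Mmp19 at 49.8 ± 4.05. In p16+ on that scale, Mmp23 at 78.5 ± 1.95 stood above Mmp13 at 52.1 ± 12.6, and Mmp14 at 639 ± 34.4 stayed below Mmp3 at 1053 ± 120.

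**Figure D4:**
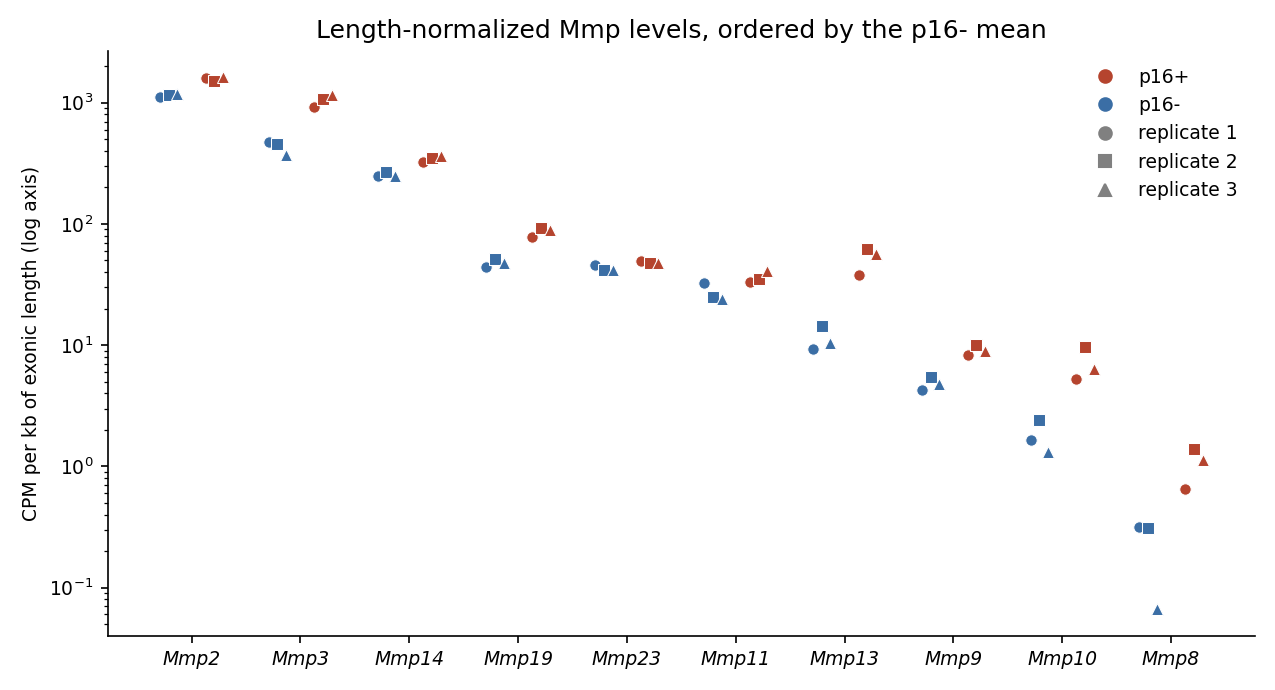
Level of each of the 10 Mmp genes in CPM per kilobase of exonic length (log axis) in each library, ordered by the p16- mean. Mmp2 and Mmp3 lead in both groups, and Mmp13 moves from 11.3 on average in p16- to 52.1 in p16+, near Mmp23 and Mmp11 on this scale.

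The inhibitors did not move as a group: of 7 tested, 1 was higher and 3 were lower in p16+. Timp1, the inducible TIMP, had 541 ± 37.8 CPM in p16+ and 204 ± 26.3 in p16- (log2 fold change 1.41, adjusted p = 1.59e-07). Timp2, Timp3 and Reck, a membrane-anchored inhibitor of Mmp2, Mmp9 and Mmp14, were lower. Timp2 had the highest counts, at 2572 ± 131 and 3067 ± 178 CPM (log2 fold change -0.25, adjusted p = 0.0399), and its call was lost on leaving out any library except p16- replicate 1, with adjusted p-values of 0.0554 to 0.200. Timp3 had 293 ± 13.5 and 430 ± 43.9 CPM (adjusted p = 0.000273), with 21.3% of its exonic length overlapped by Syn3 on the opposite strand. Reck had 64.8 ± 2.85 and 105 ± 2.43 CPM (adjusted p = 7.11e-06).

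The ratio of a protease to its inhibitors therefore depended on which inhibitor was counted. Relative to Timp1 counts in the same library, Mmp13 stood at 0.202, 0.287 and 0.278 in p16+ and 0.126, 0.166 and 0.151 in p16-, higher in p16+ without overlap (log2 difference 0.78). Mmp3 per Timp1 was 3.30, 3.38 and 3.84 against 4.38, 3.52 and 3.65, with overlapping ranges (log2 difference -0.13, exact permutation p = 0.4). Mmp2 per Timp1 was lower in all p16+ libraries, at 10.8, 8.80 and 10.1 against 19.0, 16.8 and 22.0 (log2 difference -0.96).

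Mmp14, Mmp9 and Mmp19 per Timp1 were also lower without overlap, with log2 differences of -0.97, -0.50 and -0.57. Mmp10 per Timp1 was higher by 0.58. Its ranges were separated only by the narrow gap between p16+ replicate 1, at 0.01802, and p16- replicate 2, at 0.01775. Over the summed counts of Timp1, Timp2 and Timp3, which Timp2 dominates, all 7 ratios computed were higher in p16+ without overlap, from a log2 difference of 0.56 for Mmp14 to 2.31 for Mmp13. These counts were not divided by exonic length, which is 888 bases for Timp1, 3896 for Timp2 and 8144 for Timp3. The sum thus gives the longer Timp2 and Timp3 more weight per transcript than Timp1. Ratios over a length-normalized sum were not computed. Mmp2 over this sum was 1.544, 1.543 and 1.601 in p16+ and 1.080, 1.035 and 1.037 in p16-. In all, 18 count ratios were computed, and each one without overlap had an exact two-sided permutation p of 0.1, the smallest possible, and a Benjamini-Hochberg adjusted value of 0.113.

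**Figure D5:**
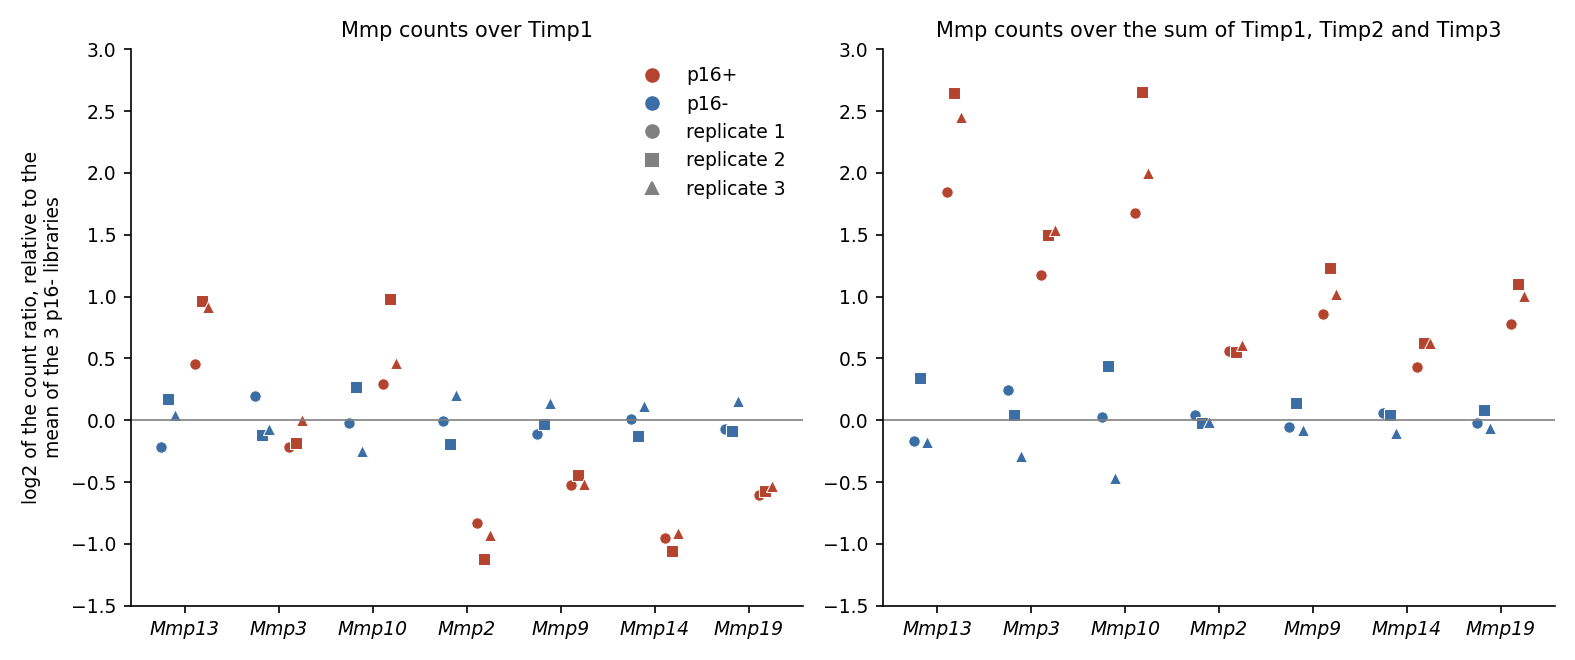
Log2 of the count ratio of 7 Mmp genes to Timp1 (left) and to the sum of Timp1, Timp2 and Timp3 (right) in each library, with the mean of the 3 p16- libraries set to 0. To the left, p16+ libraries lie above p16- for Mmp13 and, by a narrow gap, for Mmp10. They lie among the p16- libraries for Mmp3 and below them for Mmp2, Mmp9, Mmp14 and Mmp19. To the right they lie above for all 7.

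Among 11 tested activators and surface partners of the proenzymes, 4 were higher and 2 lower in p16+ (median log2 fold change 0.06). The 2 that fell were Pcsk6, a proprotein convertase, at 156 ± 21.4 and 377 ± 25.9 CPM (log2 fold change -1.27, adjusted p = 3.30e-07), and Plau, the urokinase that makes plasmin, at 307 ± 26.8 and 561 ± 39.7 CPM (log2 fold change -0.87, adjusted p = 3.88e-06). Furin, the convertase that opens the Mmp14 and Mmp11 proenzymes, rose slightly, from 88.5 ± 4.83 to 113 ± 6.63 CPM (adjusted p = 0.0042), as did Cd44, a surface receptor that holds Mmp9 and Mmp14, from 196 ± 21.6 to 262 ± 29.3 CPM (adjusted p = 0.0065). Without p16+ replicate 2 the number called higher was 1, with Cd44 at an adjusted p of 0.0564, and without p16- replicate 3 it was 2.

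Of 14 tested substrates, 8 were higher and 0 lower in p16+ (median log2 fold change 0.58). They included Spp1, which encodes osteopontin, at 376 ± 46.5 and 118 ± 27.3 CPM, Col1a1 at 37831 ± 909 and 20414 ± 2007 CPM, Col1a2 at 35656 ± 689 and 20879 ± 1915 CPM, and Lox, an enzyme that crosslinks collagen and is itself processed by proteases, at 839 ± 113 and 382 ± 56.3 CPM, with adjusted p-values of 1.52e-06, 2.66e-06, 8.83e-06 and 3.56e-06. Of the exonic length of Spp1, 18.8% is overlapped by another gene. Of 9 tested genes for collagen breakdown outside the family, 5 were higher and 1 was lower (median 0.40). Ctsk, the collagen-cutting cathepsin K, had 1269 ± 51.7 and 738 ± 59.0 CPM (adjusted p = 6.06e-06), and Adam12 261 ± 22.6 and 132 ± 24.9 CPM (adjusted p = 1.65e-05). Mrc2, the receptor that takes up cut collagen, had 636 ± 19.3 and 428 ± 52.8 CPM (adjusted p = 0.00029), and Ctsb 1984 ± 82.0 and 1496 ± 32.7 CPM (adjusted p = 0.0012), with 12.8% of its exonic length overlapped. The fall was in Fap, a serine protease of activated fibroblasts, at 295 ± 4.50 and 365 ± 8.66 CPM (adjusted p = 0.0074), named after its value was seen, and it was lost without p16+ replicate 2 or p16- replicate 3.

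Of 18 transcription factor genes known to act on Mmp promoters, 5 were higher and 4 lower in p16+ (median -0.15). Runx2 had 43.7 ± 5.30 CPM in p16+ and 22.7 ± 2.85 in p16- (log2 fold change 0.94, adjusted p = 2.64e-05), and Runx1 108 ± 18.8 and 53.4 ± 11.3 CPM (1.01, adjusted p = 0.00066, but 0.0822 without p16- replicate 1). The Ets family genes went both ways. Elk3 and Ets1 were higher by 0.47 and 0.48 on the log2 scale (adjusted p = 0.00055 and 0.0011). Ets2 was called lower, at 82.6 ± 4.06 and 112 ± 15.2 CPM (log2 fold change -0.44, adjusted p = 0.0036). Etv4 and Etv5 were not called. None of the Fos and Jun family genes on the list was called higher. Fos had 4716 ± 121 and 5305 ± 405 CPM (adjusted p = 0.184), Jun 2353 ± 106 and 2579 ± 183 CPM (adjusted p = 0.320), and Junb, called lower, 1855 ± 69.3 and 2373 ± 275 CPM (adjusted p = 0.0107). Jund and Rela were called lower too (adjusted p = 0.0219 and 0.0059), with 52.6% of the exonic length of Jund overlapped. Fos, Jun, Junb and Jund are named here after their values were seen, for the AP-1 matches above. Rela, Ets2, Etv4 and Etv5 are likewise named after their values were seen. The 4 calls in the lower direction became 2 without p16+ replicate 2 or p16+ replicate 3, Junb being lost both times, and 7 with library sizes alone.

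Of 19 tested cytokines and receptors that induce Mmp genes in other settings, 3 were higher and 2 lower (median -0.06). Tgfb3 and Pdgfrb were higher, at 107 ± 4.66 and 75.1 ± 3.93 CPM and at 726 ± 11.9 and 510 ± 41.8 CPM (adjusted p = 0.00019 and 0.00030), with 12.4% of the exonic length of Tgfb3 overlapped. Tgfb2 and Il6 were lower, at 79.8 ± 1.79 and 121 ± 11.8 CPM and at 407 ± 27.7 and 693 ± 155 CPM (adjusted p = 8.69e-05 and 0.00029). With library sizes alone, 4 of the 19 were called lower. The inflammatory inducers Il1b and Tnf were rare in both groups, at 3.95 ± 0.979 and 4.69 ± 3.14 CPM and at 0.971 ± 0.319 and 1.51 ± 0.399 CPM, and were not called; they too are named after their values were seen.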

How the data were processed

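The deposited values are fragment counts and exonic lengths of genes, which the authors obtained by running featureCounts 1.6.0 with the GENCODE vM21 exons and no strand option, per the file headers. Per the submitters' processing notes, the aligner was STAR 2.7.3a and the genome GRCm38.p6. Symbols came from vM21, which held each of the 55536 gene identifiers.

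From the counts, genes were kept with filterByExpr at its minimum of 10 counts, which left 15903 genes and 99.918% to 99.932% of the counts. TMM factors, CPM and the quasi-likelihood test (robust, group as the sole term) came from edgeR 4.0.16 in R 4.3.3, with a threshold of 0.05 after Benjamini-Hochberg adjustment. The standard error is the log2 fold change divided by the root of F. Count ratios were compared by exact permutation over libraries (SciPy). No 2 libraries agreed within sampling noise: the chi-square per degree of freedom within groups was 11.99 or more. On counts simulated for this comparison over 15903 genes, the test found 50% of the 1.5-fold changes, 86% of both the 2-fold and the 3-fold changes and 98% of the 4-fold changes, with 13 false calls of 173.

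Named genes were the 10 members, the other Mmp genes, the cluster's neighbours, up to 4 genes of smallest p in each list, and marker genes. The members and lists were chosen with earlier results of these data known, so no p over a list is given. Promoter sequences are from RefSeq (GRCm38.p6), in which 7 of the 10 members matched.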

Additional observations from a re-analysis of the deposited data

How the results depend on the processing

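The 10 members' fold changes were recomputed under 15 other settings: RLE and upper-quartile factors, library sizes alone, no filter, a filter at 1 CPM in 3 libraries, no robust estimation, the replicate block, DESeq2 1.42.0, limma-voom (limma 3.58.1), and each of the 6 libraries left out, where a group of 2 remains. No member changed direction. Of the 150 values, 144 kept their side of the threshold, 5 lost the call (Mmp8 once, Mmp11 4 times) and 1 gained it (Mmp23), as given above. Over all genes, leaving out 1 library gave 977 to 1333 higher and 910 to 1234 lower, and no setting moved either count by over 1.5 times. With library sizes alone 36.0% of called genes were higher, against 52.0%.

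With the replicate number as a term (replicate block), 1605 genes were higher and 1509 lower, and 4 of 4 cluster members and 5 of 6 others were higher. Deviations of same-numbered libraries correlated at 0.0284, 0.0821 and -0.0046, so the numbers were not taken to pair libraries, and not every library correlated best with its own number.

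Taken over the counts of Timp1, Timp2 and Timp3, not divided by length, in place of Timp1, 5 ratios changed sign. Their log2 differences became 1.40 for Mmp3, 0.57 for Mmp2, 1.04 for Mmp9, 0.56 for Mmp14 and 0.96 for Mmp19. Per kilobase of the longest transcript, shares of the member sum moved beyond 1 SD for Mmp14, to 17.25% in p16+ and 20.13% in p16-, Mmp3, to 28.4% and 18.5%, Mmp23, to 2.12% and 3.01%, Mmp19, to 2.42% and 2.13%, and Mmp2 in p16-, to 53.99%.

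Depth limits Mmp8, with 6 to 31 counts in p16- libraries, and the 7 family genes that could not be tested. Filler, harvest time and animal are not given for the libraries, so their part in the differences was not tested.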
